A study of Mus musculus with 4 samples.

Results

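The genes that encode translation initiation factors were examined for Elavl binding sites in mouse cortex and in N2A cells. Members were the protein-coding genes of the GRCm38 RefSeq gene table whose symbol begins with Eif followed by a digit, and they were kept with or without binding sites. There were 56 such genes among 21900 protein-coding genes. The sites came from HITS-CLIP, in which proteins are fixed to bound RNA in irradiated tissue or cells and the RNA recovered with the precipitated protein is sequenced. The cortex group had 3 samples of brain tissue sharing 1 deposited list of 97775 peaks, whose name refers to 2 months. The N2A group had 1 sample of this mouse neuroblastoma line and a list of 7335 peaks. The sources used here do not give the strain, sex or genotype of the mice, what the age term means, or which Elavl protein the antibody recognised. Nothing in the labels says whether the cortex samples came from separate animals. The degenerate linker was 25 nt long in the cortex samples and 7 nt long in the N2A sample, so linker design changed with the group.

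Initiation factors assemble the ribosome on the start codon of an mRNA. The factor eIF2 brings the initiator tRNA to the small ribosomal subunit, eIF1, eIF1A and eIF3 hold that subunit ready to scan, and eIF4E, eIF4G and eIF4A recognise the cap of the mRNA and unwind its leader. Phosphorylation of eIF2 by its kinases and capture of eIF4E by the 4E-binding proteins lower the rate of initiation, and both controls are used in neurons during stress and synaptic plasticity. Elavl proteins bind U-rich and AU-rich RNA and influence splicing in introns as well as mRNA stability and translation through sites near the mRNA end.

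Each peak was 50 to 51 nt wide (end minus start) and came with the p-value of the authors' caller but no read count. Sequencing depth is therefore unknown, no peak belongs to a single sample, and no spread between replicates could be computed. Differences between the lists are given as counts without a test, because each group has 1 list, the lists differ in length, and RNA abundance was not measured here. Whether a gene without a peak was unbound or not expressed cannot be told apart. Marker genes went with the labels in part. All 5 neuronal markers had cortex peaks (3 to 162 each), as did all 3 oligodendrocyte markers (11 to 13) and 2 of 3 astrocyte markers, Gfap being at 0. The microglial markers Cx3cr1 and Csf1r were at 0, and P2ry12, with 8 cortex peaks, lies within the span of Med12l. The sympathoadrenal markers Phox2a, Hand2 and Gata2 had 2, 2 and 4 N2A peaks and 0 cortex peaks, and Dbh and Th were at 0 in both lists. In N2A 2 of the 5 neuronal markers had peaks, and the markers of astrocytes, oligodendrocytes and microglia were all at 0.

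Elavl peaks lay in most initiation factor genes in cortex and in fewer in N2A. In cortex 40 of 56 genes (71.4%) overlapped at least 1 peak, against 40.8% of all protein-coding genes. In N2A the number was 21 of 56 (37.5%), against 14.5% of all protein-coding genes. Peaks in both lists were found in 20 genes (35.7%, against 13.3% of coding genes), cortex peaks alone in 20, and N2A peaks alone in Eif3j2. Thus 20 of the 21 members with N2A peaks also had cortex peaks (95.2%), close to the 91.5% of all coding genes with N2A peaks, and 20 of the 40 with cortex peaks also had N2A peaks, against 32.6% of coding genes. The 15 genes with a peak in neither list were Eif1ad, Eif2ak2, Eif2b1, Eif2b4, Eif2b5, Eif3c, Eif3d, Eif3f, Eif3g, Eif3i, Eif3k, Eif4a3l1, Eif4e1b, Eif4ebp1 and Eif4ebp3. The cortex list placed 249 peaks in the genes and the N2A list 52. Genes with a cortex peak held a median of 5 (range 1 to 58), against 4 in all coding genes with a peak, and the N2A medians were 2 (range 1 to 6) and 1. Per length, in genes with a peak, the medians were 1.92 against 1.24 peaks per 10 kb in cortex and 1.69 against 0.482 in N2A. These densities were not matched for span. Members with a cortex peak had a median span of 24.0 kb, against 36.2 kb in coding genes with one. For N2A these medians were 19.5 and 36.5 kb, and a peak in a shorter gene gives a higher density.

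**Figure D1:**
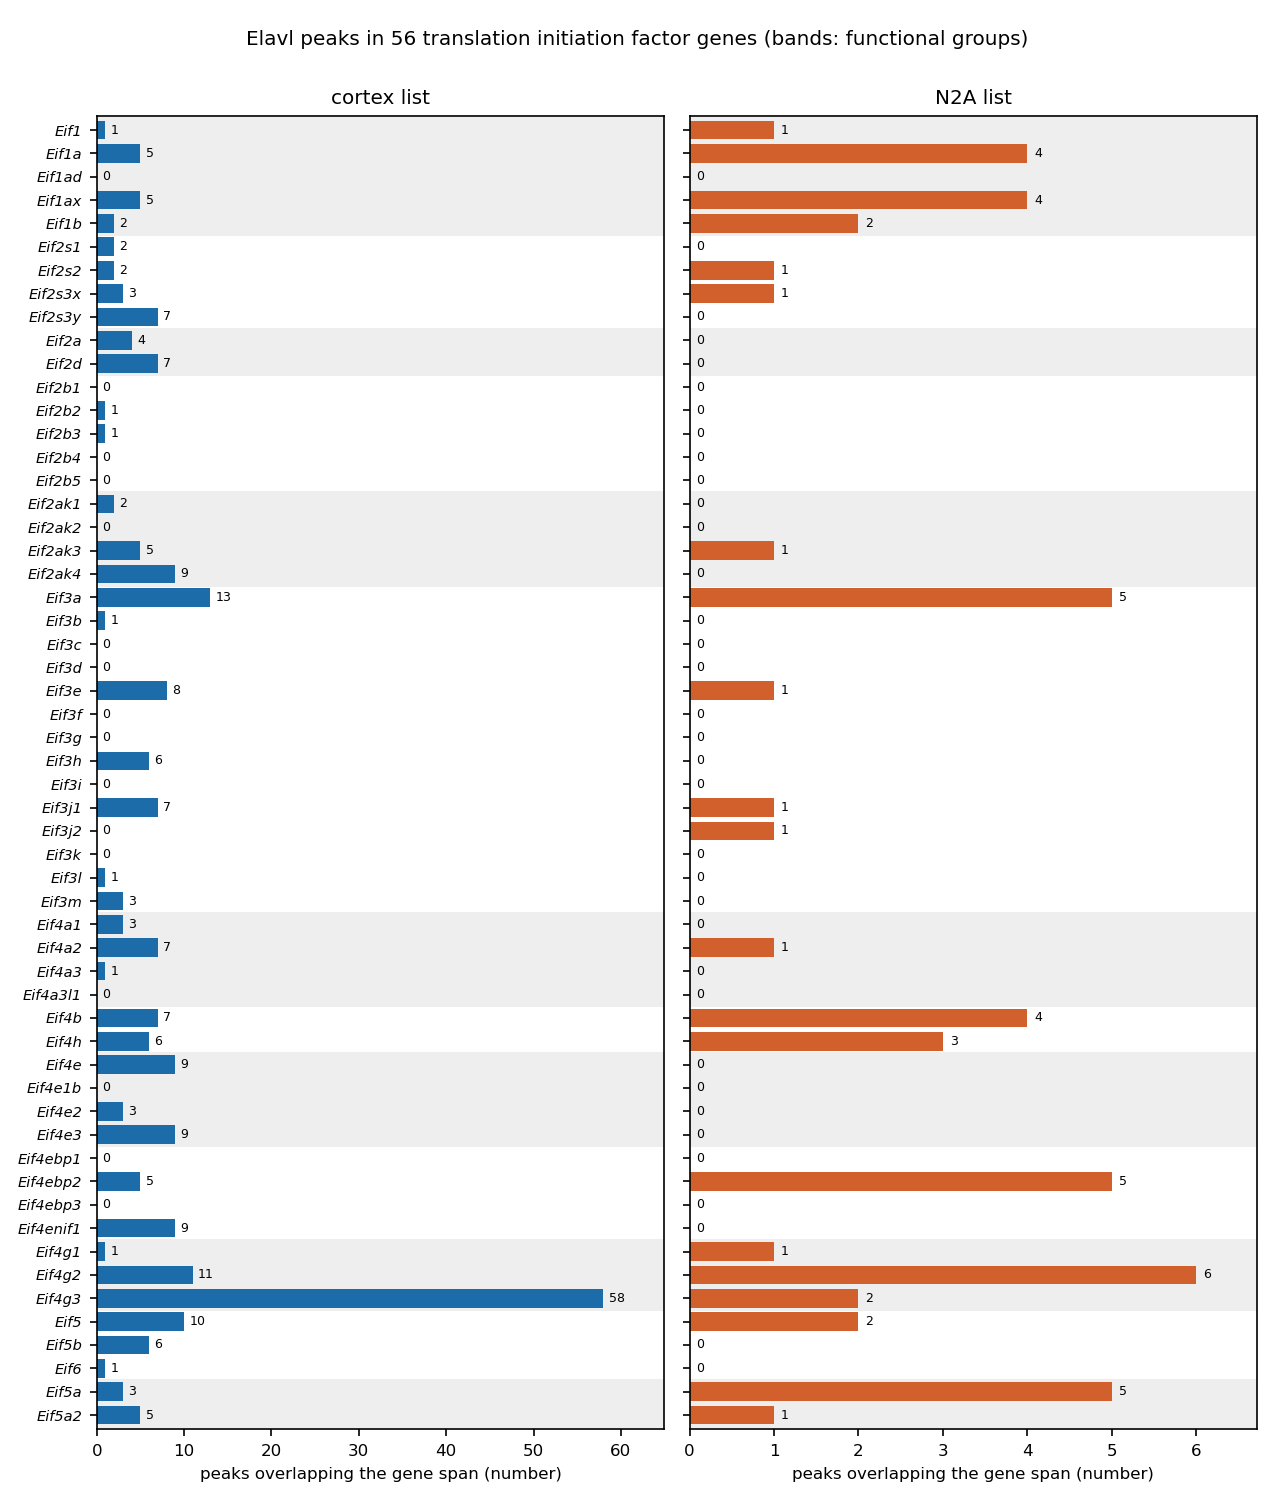
Number of Elavl peaks overlapping each of the 56 initiation factor genes (horizontal bars, counts printed) in the cortex list at left and the N2A list at right, with grey and white bands for functional groups and separate axis scales. Eif4g3 reaches 58 peaks in cortex and 2 in N2A, whereas Eif4ebp2 has 5 in each list and Eif5a has 3 in cortex and 5 in N2A.

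A longer gene offers more sequence, so the counts were also set out by gene span. Members had a median span of 18.5 kb, close to the 17.15 kb of all coding genes. Among spans under 10 kb, 8 of 18 members had a cortex peak (44.4%), against 15.7% of coding genes in that class. Between 10 and 30 kb the count was 18 of 23 (78.3% against 41.6%), and over 30 kb it was 14 of 15 (93.3% against 66.7%). In N2A the same classes gave 6 of 18 (33.3% against 5.48%), 12 of 23 (52.2% against 14.4%) and 3 of 15 (20% against 24.2%). The members over 30 kb in N2A were thus near the background, and those with shorter spans stood above it. Over the 56 genes the number of cortex peaks and the span had a Spearman correlation of 0.596, against 0.538 over all coding genes. For N2A the values were -0.04 and 0.234, and most genes there were tied at 0.

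The small factors eIF1 and eIF1A, which open the scanning ribosome and help it choose the start codon, carried sites near the gene end in both lists. Eif1 had a single peak in each list at the same place, 0.056 kb from the end of a gene of 2.15 kb. The cortex peak lay at chr11:100321992-100322043 on the plus strand (p of 2.07e-77) and the N2A peak at chr11:100321993-100322044 (p of 5.28e-18), within the strongest 0.983% and 7.20% of their lists. Its paralog Eif1b had 1 cortex peak on its own strand, 0.036 kb from the end (p of 2.88e-08), and 2 weak N2A peaks 0.285 and 0.11 kb from it. A further cortex peak in Eif1b was on the other strand.

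The X-linked Eif1ax, which encodes eIF1A, had 5 cortex peaks, all within 3.54 kb of the gene end. The strongest lay at chrX:159388072-159388122 (p of 1.28e-78), 1.499 kb from the end, and the next at chrX:159386027-159386078 (p of 1.52e-59), 3.54 kb from it. All 4 N2A peaks of Eif1ax fell in a narrower stretch, 3.06 to 3.76 kb from the end, where the strongest (p of 6.30e-07) overlapped the second cortex peak by 39 nt. No N2A peak was listed at the cortex site of lowest p. Its autosomal copy Eif1a had 5 cortex and 4 N2A peaks, all 0.622 to 1.84 kb from the end, with lowest p of 3.15e-08 and 0.000819. Its 1 shared site lay 1.54 kb from the end, with p of 1.53e-07 in cortex and 0.00882 in N2A and 42 nt in common. How reads that map to both copies were treated is not given, so the division of peaks between Eif1a and Eif1ax is uncertain. Eif1ad had no peak.

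Subunits of eIF2 differed in where their peaks lay. Eif2s1, the alpha subunit that the stress kinases phosphorylate, had 2 cortex peaks, 8.11 and 24.5 kb from the gene end, and 0 in N2A. The beta subunit Eif2s2 had the stronger of its 2 cortex peaks 0.054 kb from the end (chr2:154871464-154871514, minus strand, p of 6.57e-14), and its only N2A peak (p of 5.07e-05) overlapped it by 46 nt. For the gamma subunit, the X-linked Eif2s3x had the strongest of its 3 cortex peaks 0.086 kb from the end (chrX:94188795-94188846, minus strand, p of 5.99e-49). Its only N2A peak, at chrX:94188787-94188837 (p of 4.04e-19), shared 43 nt with it. The Y-linked copy Eif2s3y had 7 cortex peaks, all 20.7 to 35.3 kb from the end of its 38.6 kb span, with a lowest p of 1.29e-05. None of them lay within 5 kb of the end, where Eif2s3x had 2 of its 3, and the N2A list had 0 peaks in Eif2s3y. These are again near-identical copies, with the same limit on the assignment of reads.

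Genes for eIF2B, the exchange factor that reloads eIF2 with GTP, had weak sites or none, in a group with a median span of 8.92 kb. In cortex 2 of 5 had a peak, a share near the 40.8% of all coding genes. Only Eif2b2 and Eif2b3 had a peak, 1 each in cortex, with p of 0.00456 and 0.0896. The N2A list had 0 peaks in the 5 genes, whereas 14.5% of all coding genes had one. With 5 genes this N2A count is near that share. Eif2b1, Eif2b4 and Eif2b5 had 0 in both lists. Eif2a, an alternative factor for initiator tRNA delivery, had 4 cortex peaks, the strongest 0.03 kb from the end (p of 0.00240). Eif2d overlapped 7 cortex peaks, but 5 of them were on the other strand, within the overlapping gene Rassf5. The 2 peaks on the strand of Eif2d lay 18.4 and 20.3 kb from its end.

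Among the eIF2 kinases, 3 of 4 had cortex peaks and Eif2ak3 alone had one in N2A. All 4 span over 30 kb, and of coding genes in that class 66.7% had a cortex peak and 24.2% an N2A peak. The counts of the kinases were near those shares. Eif2ak3 encodes PERK, the kinase of endoplasmic reticulum stress. Of its 5 cortex peaks, 3 lay within 0.501 kb of the gene end, led by chr6:70904901-70904952 on the plus strand (p of 3.51e-09), and the N2A peak there (p of 0.0248) overlapped the leading one by 50 nt. Eif2ak4, or GCN2, which responds to amino acid shortage, had 9 cortex peaks, all at least 7.35 kb from its end, with a lowest p of 2.68e-07 at 38.5 kb. Eif2ak1, the heme-regulated kinase, had 2 weak peaks (lowest p of 0.0108), and Eif2ak2, the double-stranded RNA kinase PKR, had 0 in both lists in a span of 32.1 kb.

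The genes of the large eIF3 scaffold differed among themselves. Of 14 genes, 7 had cortex peaks and 4 had N2A peaks, beside shares of 40.8% and 14.5% over all coding genes. The other 7 subunit genes were without a cortex peak. Those were Eif3c, Eif3d, Eif3f, Eif3g, Eif3i, Eif3j2 and Eif3k, with spans of 2.42 to 19.5 kb. Eif3a, the largest subunit of the core, held 13 cortex and 5 N2A peaks. Its strongest cortex peak lay 0.614 kb from the end (chr19:60761730-60761781, minus strand, p of 2.83e-28), and the next 0.277 kb from it (p of 1.03e-15). In N2A the order of sites was different. The lowest p, 1.11e-25, belonged to chr19:60761222-60761273, 0.106 kb from the end, which overlapped a cortex peak of p 4.50e-05 by 42 nt. The N2A peak over the leading cortex site had a p of 9.31e-12, and another N2A peak lay 0.012 kb from the end (p of 4.05e-10).

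The other eIF3 genes with N2A or cortex peaks had fewer peaks than Eif3a. Eif3h had 6 cortex peaks, all 46.8 to 75.95 kb from the gene end in a span of 78.9 kb, with lowest p of 1.12e-08 and 2.80e-08. Eif3e had 8 cortex peaks, of which 1 lay within 5 kb of the end, and its only N2A peak (p of 0.0475) matched a cortex peak 7.30 kb from the end with 50 nt of overlap. The cortex list held 3 more peaks 0.457 to 2.16 kb past the annotated end of Eif3e on its strand, outside every coding gene. Eif3j1 had 7 cortex peaks and 1 N2A peak (p of 0.0708), the latter 8.79 kb from the end and sharing 25 nt with a cortex peak. Its copy Eif3j2, of 2.42 kb, had 1 N2A peak (chr18:43476220-43476271, minus strand, p of 0.0353, 0.802 kb from the end) and 0 in cortex. That peak was at 73.25% of the N2A list from the top, and the strand of Eif3j2 was taken from it. Reads shared by Eif3j1 and Eif3j2 make that assignment uncertain too. Eif3m had 3 cortex peaks, and Eif3b and Eif3l had 1 each.

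The eIF4A helicases differed in their sites. Eif4a2, the paralog known to be abundant in brain, had 7 cortex peaks in 6.67 kb, or 10.5 per 10 kb. Its 3 strongest stood close together 0.362, 0.514 and 0.78 kb from the gene end, led by chr16:23113719-23113770 on the plus strand (p of 3.74e-41). The single N2A peak (p of 0.000516) overlapped the leading one by 49 nt. Eif4a1, known as the paralog of dividing cells, had 3 cortex peaks in 5.49 kb with a lowest p of 0.00298 and 0 in N2A. Eif4a3, a subunit of the exon junction complex, had 1 cortex peak (p of 0.0585), and its copy Eif4a3l1 had 0. The helicase partners Eif4b (7 cortex and 4 N2A peaks) and Eif4h (6 and 3) had peaks in both lists, and their strongest sites were shared. For Eif4b this site was 1.69 kb from the end, with p of 3.99e-53 in cortex (chr15:102095432-102095483, plus strand) and 4.27e-16 in N2A (chr15:102095430-102095480), and 49 nt in common. A weaker shared site of Eif4b lay 0.199 kb from the end (p of 0.0568 in cortex and 0.00658 in N2A, 48 nt in common). For Eif4h it was 1.38 kb from the end, with p of 9.46e-47 in cortex (chr5:134621255-134621305, minus strand) and 2.27e-13 in N2A (chr5:134621267-134621318), and 39 nt in common. A second shared Eif4h site lay 8.58 kb from the end (p of 1.22e-06 in cortex and 2.46e-07 in N2A, 37 nt in common).

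Of the 4 genes for cap-binding proteins, 3 had cortex peaks and 0 had N2A peaks, against 40.8% and 14.5% of all coding genes, and with 4 genes the N2A count is near that share. Eif4e had 9 cortex peaks, 5 of them within 5 kb of the gene end. The strongest, at chr3:138556047-138556098 on the plus strand, had a p of 3.43e-50 and lay 3.60 kb from the end, and the next was 0.163 kb from it (p of 2.09e-15). A further 3 cortex peaks lay 1.72 to 2.51 kb past the annotated end, in no coding gene. No N2A peak was listed in Eif4e. Eif4e3 also had 9 cortex peaks (lowest p of 2.99e-06, 0.148 kb from the end), Eif4e2 had 3 (lowest p of 0.000684, 0.587 kb from the end), and Eif4e1b had 0.

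Of the proteins that hold eIF4E back, Eif4ebp2, the main 4E-binding protein of brain, had 5 peaks in each list. The cortex peaks were weak, with a lowest p of 0.000142 at 0.072 kb from the gene end. The N2A peaks all lay 3.51 to 4.65 kb from the end, led by chr10:61432003-61432053 on the minus strand (p of 3.53e-08) and by a site of p 1.47e-06 at 4.09 kb. Only the N2A peak at 4.65 kb overlapped a cortex peak, with p of 0.000227 in N2A and 0.0950 in cortex and 41 nt in common. The strongest N2A peak of Eif4ebp2 was in the strongest 17.1% of its list and the strongest cortex peak in the strongest 26.0% of its own. Eif4ebp1 and Eif4ebp3 had 0 peaks in both lists. Eif4enif1, the 4E-transporter that takes eIF4E into the nucleus, had 9 cortex peaks and 0 in N2A. A cluster of 6 of those 9 lay 11.3 to 14.3 kb from its end, with a lowest p of 2.08e-14.

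The 3 eIF4G genes all had peaks in both lists, against 13.3% of all coding genes, and differed widely in the number of peaks. Eif4g3 held 58 cortex peaks in a span of 215 kb, which was 23.3% of all cortex peaks in initiation factor genes and 2.69 per 10 kb. Its strongest peaks were at the gene end, at chr4:138206384-138206434 (p of 1.34e-91, 0.652 kb from the end) and chr4:138206512-138206563 (p of 9.10e-41, 0.523 kb), both on the plus strand. Of the others, 49 were over 20 kb and 33 over 100 kb from the end, and those beyond 5 kb had a median rank at 56.5% of the list from the top. Both N2A peaks of Eif4g3 lay at the end, and the stronger (p of 0.000507) overlapped the cortex peak at 0.523 kb by 47 nt. The weaker (p of 0.0793, 0.846 kb from the end) overlapped a cortex peak of p 0.0994 by 45 nt. None of the cortex sites beyond 5 kb had an N2A counterpart. Over all coding genes 0.847% of such cortex peaks had one, so this absence is near the background.

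Eif4g2, which encodes the eIF4G relative DAP5 used in cap-independent initiation, held 11 cortex peaks in 15.0 kb (7.31 per 10 kb) and 6 N2A peaks. The strongest cortex peak lay 3.46 kb from the gene end (chr7:111071443-111071494, minus strand, p of 8.25e-60). The next lay 13.6 kb from the end (p of 5.43e-33) and had no N2A match. In N2A the leading cortex site was second, with a p of 1.27e-11 and 47 nt in common. First was chr7:111072342-111072393, 4.36 kb from the end (p of 4.14e-54), where the cortex list had no peak. Another shared site lay 0.138 kb from the gene start (chr7:111082841-111082892 in cortex), with p of 0.000360 and 0.00309 and 51 nt in common. A further shared site, of p 2.71e-31 in cortex and 0.000543 in N2A with 47 nt in common, lay 8.10 kb from the end, within the small nucleolar RNA gene LOC115486847. Eif4g1, the main eIF4G of most cells, had 1 weak peak in each list at 0.142 and 0.153 kb from the end (p of 0.00791 and 0.0974, 40 nt in common).

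Eif5, the GTPase activator of eIF2, had the densest cortex sites of all initiation factor genes, with 10 peaks in 8.65 kb or 11.6 per 10 kb. The strongest was at chr12:111544818-111544869 on the plus strand (p of 8.87e-30), 1.88 kb from the gene end. One of its 2 N2A peaks (p of 0.0105) overlapped that site by 49 nt. Eif5b, the subunit-joining GTPase, had 5 cortex peaks on its own strand with a lowest p of 4.62e-13 at 2.26 kb from the end, within the part that overlaps Rev1, and 1 on the other strand. Eif6, which keeps the ribosomal subunits apart, had 1 cortex peak (p of 0.0134).

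The eIF5A genes encode the hypusine-bearing factor that helps ribosomes through difficult peptide bonds. Eif5a had the lowest cortex p of all members, 1.49e-92, at chr11:69917193-69917243 on the minus strand, 0.481 kb from the gene end. A second cortex peak of Eif5a lay 0.301 kb from the end (p of 4.15e-20). N2A listed 5 peaks in Eif5a, or 9.53 per 10 kb, the highest density of any member there. The leading N2A peak, at chr11:69916994-69917045 (p of 1.74e-31), overlapped the second cortex peak by 33 nt, and the next (p of 1.39e-20) touched the leading cortex peak by 1 nt. The former site also lies in the span of the neighbouring gene Gps2. The match of 1 nt in Eif5a depends on counting both end positions. If a deposited start is the position before the first base, those peaks only adjoin. Its paralog Eif5a2 had 5 cortex peaks, all within 4.25 kb of the end, led by chr3:28797391-28797441 (p of 2.23e-54) and chr3:28795448-28795499 (p of 4.32e-37) on the plus strand. Its 1 N2A peak (p of 0.00230, 4.24 kb from the end) overlapped a cortex peak of p 1.44e-10 by 34 nt.

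The strongest peaks of the members can be placed by their rank, as percent of the list from the top. In cortex the leading 12 were Eif5a (0.752%), Eif4g3 (0.759%), Eif1ax (0.959%), Eif1 (0.983%), Eif4g2 (1.37%), Eif5a2 (1.55%), Eif4b (1.60%), Eif4e (1.73%), Eif2s3x (1.79%), Eif4h (1.89%), Eif4a2 (2.23%) and Eif5 (3.28%). In N2A the leading 10 were Eif4g2 (1.80%), Eif5a (3.63%), Eif3a (4.74%), Eif2s3x (6.68%), Eif1 (7.20%), Eif4b (8.09%), Eif4h (9.91%), Eif4ebp2 (17.1%), Eif1ax (19.9%) and Eif2s2 (28.0%). Of the 12 leading cortex genes, Eif5 (55.6%), Eif5a2 (42.75%), Eif4a2 (35.5%) and Eif4g3 (35.5%) were not among the leading 10 in N2A, and Eif4e had no N2A peak. Over all members with a peak the median rank was 14.4% in cortex and 35.5% in N2A, near the 15.6% and 36.0% of all coding genes with one.

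Position within the gene was compared over all members on the strand of each gene. In cortex 81 of 242 peaks (33.5%, Wilson 95% interval 27.8 to 39.6) lay within 5 kb of the gene end, against 20% of peaks in all coding genes. In N2A it was 45 of 52 (86.5%, 74.7 to 93.3), against 80.1%, which lies inside the interval. By gene, 29 of 56 members (51.8%) had a cortex peak in that window, against 31.1% of coding genes, and 19 (33.9%) an N2A peak there, against 12.2%. These intervals cover counting error only, and peaks of a gene are not independent. Without Eif4g3 the cortex share was 41.8%. A short gene places every peak near its end, and in spans over 10 kb the shares were 27.4% in cortex and 82.5% in N2A, against 18.2% and 78.1% in coding genes of such spans. Beyond 20 kb from the end lay 40.5% of the cortex peaks of members (26.6% without Eif4g3), against 68.1% for all coding genes. Of N2A peaks, 0 of 52 lay there (upper limit 6.88%), against 10.5% for all coding genes. A span under 20 kb can hold no such peak. Members with a cortex peak had a median span of 24.0 kb, against 36.2 kb in coding genes with one. For N2A these medians were 19.5 and 36.5 kb, and the shares beyond 20 kb were not matched for span.

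**Figure D2:**
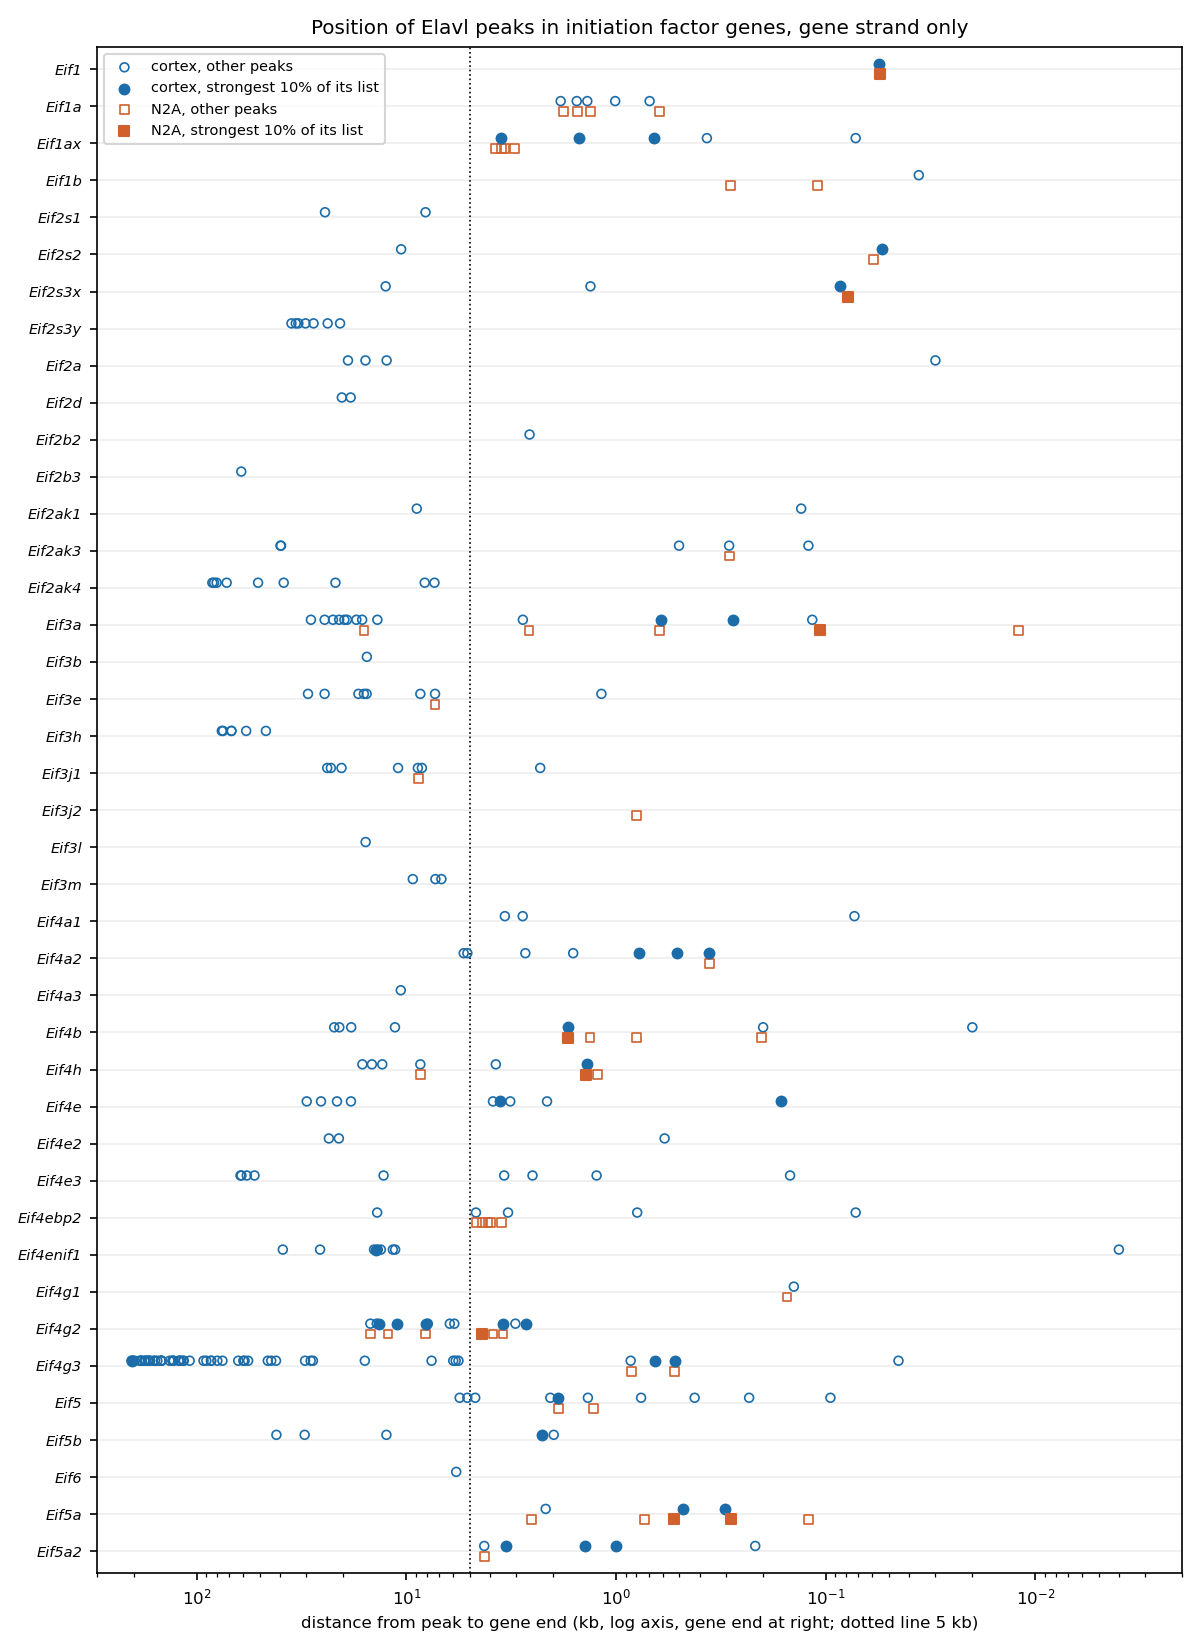
Distance of every peak on the gene strand to the gene end (kb, log axis, end at right) for the initiation factor genes with such a peak, one row per gene. Blue circles are cortex, orange squares N2A, filled symbols belong to the strongest 10% of their list, and the dotted line marks 5 kb. N2A squares sit mostly right of the line (45 of 52), whereas Eif4g3, Eif3h, Eif2ak4 and Eif2s3y show cortex circles far to the left.

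Strong peaks gathered at the gene end in cortex. Of the 81 cortex peaks within 5 kb of the end, 26 (32.1%) were in the strongest 10% of the list, against 5 of the 161 further away (3.11%). Over all coding genes the shares were 25.5% and 6.24%. The strongest peak of a member was within 5 kb of the end in 26 of 40 genes in cortex (65.0%, against 61.1% of coding genes) and in 19 of 21 in N2A (90.5%, against 83.4%). The exceptions in N2A were Eif3e and Eif3j1. In this respect the members were near the background in both lists.

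**Figure D3:**
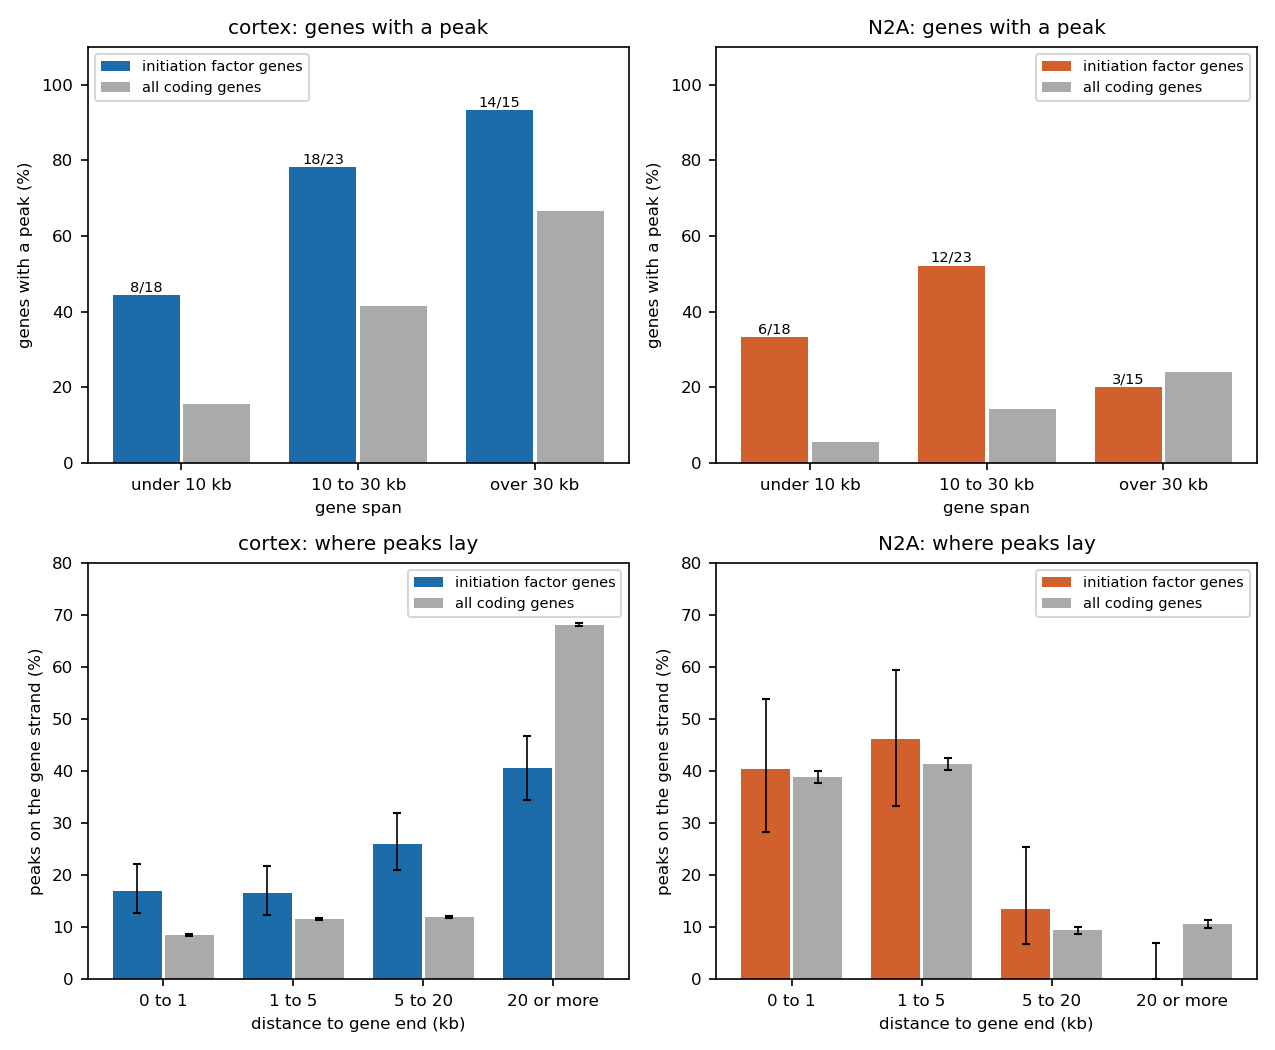
Top, percent of genes with at least 1 peak by gene span for initiation factor genes (coloured, counts printed) and all coding genes (grey), cortex at left and N2A at right. Bottom, percent of peaks on the gene strand by distance to the gene end, with Wilson 95% intervals for counting error. In cortex 40.5% of member peaks lay 20 kb or more from the end, against 68.1% in all coding genes. The bottom panels are not matched for span. Members with a cortex peak had a median span of 24.0 kb, against 36.2 kb in coding genes with one.

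Sites of the lists were then matched at the level of the nucleotide, with peaks taken to overlap when they had 1 nt or more in common on 1 strand. Both end positions were counted in an overlap. The sources used here do not say whether a deposited start is the first base or the position before it. In the latter case every overlap in the text is 1 nt shorter, and the 1 nt match in Eif5a is no overlap. With centres within 50 nt as the rule, 25 of 52 N2A peaks (48.1%) matched. Of 52 N2A peaks in members, 26 (50%, 36.9 to 63.1) overlapped a cortex peak, against 42.5% of N2A peaks in all coding genes. The matches were close, with a median overlap of 45.5 nt and at least 40 nt in 19 of 26. They covered 19 of the 20 genes with peaks in both lists, Eif1b being the exception. Beyond 5 kb from the end, 5 of 7 N2A peaks matched a cortex peak, namely those in Eif3e, Eif3j1 and Eif4h and 2 in Eif4g2. Over all coding genes the share was 45.7%, inside the interval of 35.9 to 91.8 for these 7 peaks. Of the 26 N2A peaks without a match, 20 had a cortex peak centre within 500 nt. The strongest peaks of both lists overlapped in 9 genes, which were Eif1, Eif2ak3, Eif2s2, Eif2s3x, Eif4a2, Eif4b, Eif4g1, Eif4h and Eif5. Neither this count nor that of centres within 500 nt was computed over all coding genes. Whether they differ from the background was therefore not tested. Cortex peaks that matched an N2A peak had a median rank at 6.42% of the list, and those without a match at 52.9%. Of member peaks in the stronger 50% of the cortex list 17.5% matched, against 3.88% in the weaker 50%. Over all coding genes these shares were 5.38% and 0.94%, so the direction was the same there.

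Whether a member had N2A peaks went with the position and strength of its cortex sites, as it did over all coding genes. Of 29 members with a cortex peak within 5 kb of the gene end, 20 had an N2A peak (69.0%, against 38.5% of coding genes with such a cortex peak). Of 11 members whose cortex peaks all lay elsewhere, 0 had one (against 14% of coding genes), and with 11 genes this count is near that share. These 11 were Eif2ak4, Eif2b3, Eif2d, Eif2s1, Eif2s3y, Eif3b, Eif3h, Eif3l, Eif3m, Eif4a3 and Eif6. Their strongest cortex peaks were all outside the strongest 5% of the list, so position and strength were not separated. When the strongest cortex peak was in the strongest 5% of the list, 12 of 13 members had an N2A peak (92.3%, against 57.0% of such coding genes), and Eif4e was the exception. When it was below the strongest 20%, 3 of 16 had one (18.8%, against 15.2%), namely Eif3j1, Eif4ebp2 and Eif4g1. Over the 20 members with peaks in both lists, the ranks of the strongest peaks had a Spearman correlation of 0.647, against 0.290 over 2914 coding genes. The points share the genes and their RNA abundance, and no p is given.

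**Figure D4:**
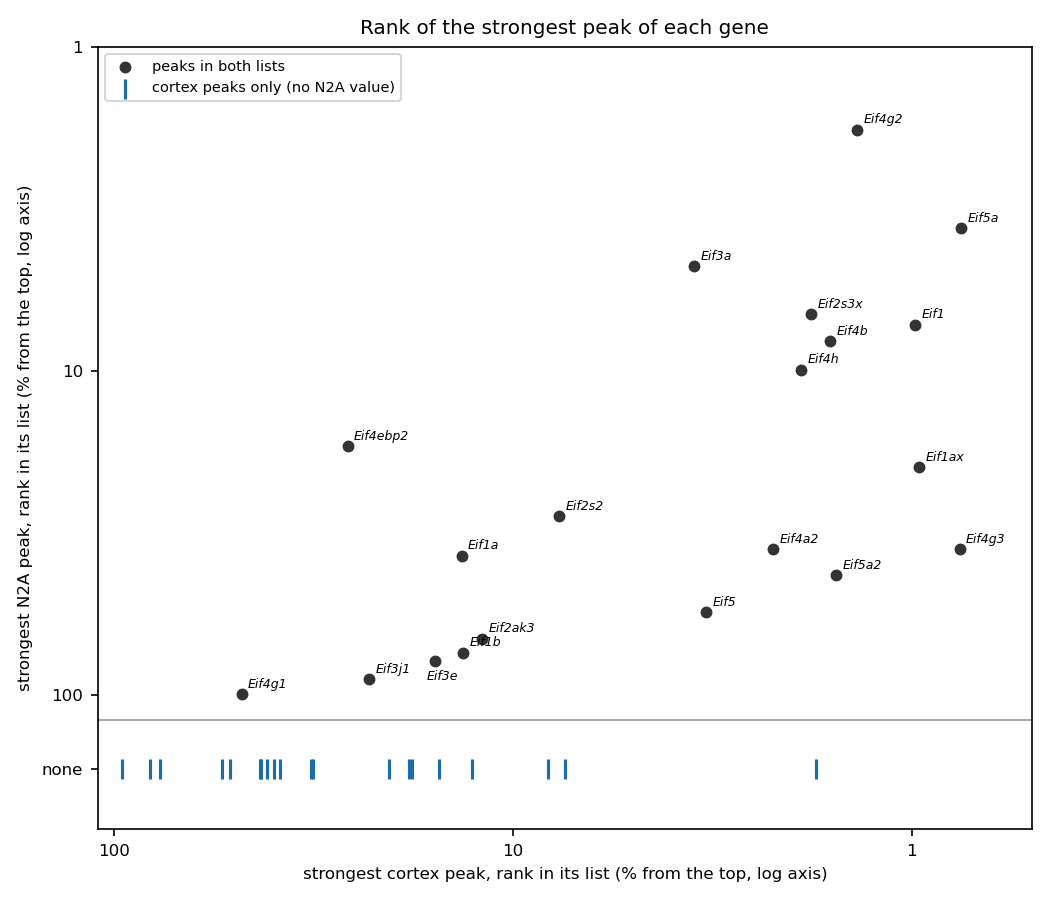
Rank of the strongest cortex peak (horizontal) and the strongest N2A peak (vertical) of each initiation factor gene, in percent of its list from the top on log axes, with stronger toward the right and the top. Points are the 20 genes with peaks in both lists and blue ticks in the row marked none the 20 genes with cortex peaks only. Eif5a and Eif4g2 are strong in both, Eif4g3 ranks at 0.759% in cortex and 35.5% in N2A, and Eif4ebp2 ranks at 26.0% and 17.1%.

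Several initiation factor genes host small nucleolar RNAs in their introns, and a few peaks fell there. In cortex 4 of 249 member peaks had at least 50% of their length in such a gene, 2 in Eif4a2 (Snord2 and LOC115488689) and 1 each in Eif4a1 (LOC115487892) and Eif4g2 (LOC115486847). In N2A there was 1, at the same Eif4g2 site. Shares were 1.61% and 1.92%, against 0.0408% and 0.167% of peaks in all coding genes. The lists do not separate RNA of the small nucleolar RNA from that of the host message.

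Other genes of translation were counted beside the initiation factors. Of 44 genes for elongation, termination, poly(A) binding, other regulation of initiation, mTOR signalling and the stress response, 40 had cortex peaks (90.9%) and 20 had N2A peaks (45.5%). Both shares were above the 71.4% and 37.5% of the initiation factor genes and the 40.8% and 14.5% of all coding genes, with no test of the difference. These sets were not matched for span, and longer genes more often had a peak over all coding genes. The 4 without a cortex peak were Eef1b2, Pelo, Mknk1 and Trib3. By group, cortex and N2A peaks were found in 8 and 4 of 9 elongation genes, 5 and 3 of 6 termination genes, and 5 and 4 of 5 poly(A)-binding genes. The counts were 9 and 3 of 9 other regulators of initiation, 7 and 3 of 8 mTOR and MNK genes, and 6 and 3 of 7 stress response genes. The lowest cortex p belonged to Cyfip2, a partner of FMRP (1.50e-235), Pdcd4, an eIF4A inhibitor (2.27e-186), Impact, an inhibitor of GCN2 (1.15e-152), and Gspt1, a release factor (3.05e-76). In N2A they belonged to Eef1a1, the elongation factor that delivers tRNA (2.46e-78), Pabpc1, the cytoplasmic poly(A)-binding protein (1.02e-40), Atf4, the stress transcription factor (1.55e-21), and Ddx3x, an RNA helicase (3.56e-20). Cyfip2 and Pdcd4 had 0 N2A peaks, as Eif4e did.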

How the data were processed

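Per the labels, Elavl-bound RNA from 3 cortex samples and 1 N2A sample was partly digested, ligated to linkers and amplified by PCR. The submitters' processing notes name Novoalign, without a version, and hg19, but the files use mouse chromosomes and scaffolds, and coordinates were read as GRCm38. The deposited p-value of each peak was made by the authors, and the sources used here do not give its adjustment, the peak caller or how samples were pooled. All deposited peaks were used, with coordinates as deposited. A rank is a peak's place by p in its own list.

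From these lists, a peak counted for every coding gene span of GRCm38.p6 (RefSeq) that it touched by at least 1 nt. Gene strand came from the RefSeq promoter table for 44 members and from most of the gene's peaks for 8, and 4 members without peaks had none. In 4707 coding genes with at least 3 peaks, the 2 sources gave the same strand in 97.6%. Distance to the gene end used peaks on the gene strand. Exons, untranslated regions and peak sequence were not analysed here. No promoter window held by the reference for a member overlapped a peak. Counts were set beside those of all 21900 coding genes without a test, because genes and peaks are not replicates. Alternatives were the assignment of peaks, p limits, strand, window and overlap. The members and lists were chosen with earlier results of these data known. All members are named, and those given in full have the 12 lowest best p in cortex or the 10 lowest in N2A, or shared sites, with further positions chosen after their values were seen. One marker gene is not reported here. Overlap counting was tested on simulated data. Python 3.11.15, pandas 2.3.3 and SciPy 1.17.1 were used.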

Additional observations from a re-analysis of the deposited data

How the results depend on the processing

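Of 37 alternatives to 8 results, 29 stayed within 1.5 times of a count or inside the Wilson interval of a share. The number of members with a peak ranged from 29 to 40 in cortex and from 14 to 21 in N2A. Under the same settings the share of all coding genes with a peak ranged from 31.1% to 40.8% in cortex. In N2A that share ranged from 9.27% to 14.5%. The other alternatives changed where member peaks lay. With windows of 2 and 10 kb the cortex share was 23.1% and 43.8% and the N2A share 57.7% and 94.2%, by construction. In cortex it was 45.3% in the stronger 50% of the list, 27.4% in spans over 10 kb and 41.8% without Eif4g3. Without Eif4g3 the cortex share 20 kb or more from the end was 26.6%, against 40.5% with it. The span limit, the settings without Eif4g3, the distance on each peak's own strand and the stronger 50% of the N2A list were added after the data had been seen. No paired analysis was possible because each group has 1 list and no values per sample, and for the same reason no replicate could be left out. Depth is unknown, so a gene without N2A peaks was not detectably bound in this list, not shown to be unbound.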
